A study of Mus musculus with 2 samples.

Results

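Genes of the hypoxia-inducible factor (HIF) pathway and hypoxia targets outside glycolysis were examined in mouse Lewis lung carcinoma (LLC) cells, a lung tumor line of C57BL/6 mice. The genes were fixed as a list of 35 symbols, of which 10 encode HIF subunits and oxygen sensors and 25 encode targets. They were found by symbol in the platform annotation, and 34 of the 35 were measured among 19505 named genes, each by 1 probe set. Loxl2, a lysyl oxidase-like enzyme, was not analysed here. Total RNA of 2 stable LLC lines was profiled on the Clariom S mouse platform of Affymetrix, each line on 1 array. The control line was infected with virus supernatant carrying shEmpty shRNA and the knockdown line with one carrying shPDLIM2 shRNA, and both were kept in DMEM with fetal bovine serum. The treatment notes give puromycin selection of stable lines. The labels name neither the oxygen level of the cultures nor whether a line is a single clone, and the knockdown rests on a single shRNA, so that an effect of the shRNA, of the line and of its culture cannot be told apart.

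HIF is a dimer of an oxygen-labile alpha subunit and a stable beta subunit. In the presence of oxygen, prolyl hydroxylases of the EGLN (PHD) family mark the alpha subunit for VHL, which directs its ubiquitination and degradation, and the asparaginyl hydroxylase encoded by Hif1an blocks its contact with coactivators. When these enzymes lack oxygen or are inhibited, for which succinate is one known agent, the dimer binds hypoxia response elements and raises transcription of genes for vessel growth, pH control, matrix enzymes, mitophagy and glycolysis. The arrays measured RNA, whereas this control acts on the HIF protein.

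Since each line had 1 array, the spread between cultures is unknown, and differences are described without p-values, their precision limited by the number of arrays. Each value is the authors' log2 signal after RMA, and each difference is the shPDLIM2 minus the shEmpty signal on that scale. A signal was called above background where it exceeded the 95th percentile of 1450 odorant, vomeronasal and taste receptor genes on the same array, 5.12 in shEmpty and 5.26 in shPDLIM2 cells. Of these receptor genes the central 95% of differences ran from -0.79 to 1.01. Among 48 genes with exactly 2 probe sets the spread of 1 probe set's difference was 0.35. Both probe sets of a gene were read on the same arrays, so that this spread does not measure variation between cultures. The targeted gene, Pdlim2, measured 10.04 on the shEmpty array and 8.33 on the shPDLIM2 array, 3.27-fold lower. Of the defining markers, all 5 mesenchymal genes were above background on both arrays, while of 5 epithelial genes Krt8 and Krt18 were above it on both, Krt19 in shEmpty cells alone, and Epcam and Cdh1 on neither. The mean signal over the epithelial markers was 6.66 in shEmpty and 6.08 in shPDLIM2 cells. Of 18 measured markers of fibroblasts, endothelium, macrophages and lymphocytes, Col3a1 alone was above background on both arrays. Another 4 were above it on the shPDLIM2 array alone, with log2 signals of 3.55 and 5.33 for Pecam1, 4.93 and 5.76 for Adgre1, 5.06 and 5.82 for Dcn and 4.84 and 5.38 for Cd4, in the order shEmpty and shPDLIM2. The defining markers Cdh5, Ptprc, Cd3e and Ms4a1 were not above background on either array. The part of these markers in the members' differences was not tested. The mean signals of these lists ranged from 3.91 to 5.99 in shEmpty and from 4.13 to 5.90 in shPDLIM2 cells.

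Of the members above background, 12 of 18 hypoxia targets and 4 of 8 subunit and sensor genes had lower signals in shPDLIM2 LLC cells, beside 54.9% of all genes above background. Of the 34 measured genes, 26 were above background on both arrays and 8 on neither. Among these 26 genes, 16 were lower and 10 were higher in shPDLIM2 cells, with a median log2 difference of -0.17. Over all 34 genes, 20 were lower and 14 higher, beside 49.0% of all named genes that were lower. Of all 10779 genes above background on at least 1 array, 54.9% were lower and 44.3% were higher, with a median of -0.06. Adm and Stc1 were at least 2-fold lower, against 3.27% of all genes above background, and no member was at least 2-fold higher on the deposited scale, against 2.1%. At 1.5-fold, 6 members were lower (Adm, Stc1, Kdm3a, Bnip3l, P4ha1 and Higd1a), against 14.5% of all genes above background, and Egln2 and Cited2 were higher, against 9.8%. After quantile normalization 3 members (Adm, Stc1 and Kdm3a) were at least 1.5-fold lower, against 12.2% of genes, and with the lowess trend removed 4, as Bnip3l stayed, against 12.4%.

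**Figure D1:**
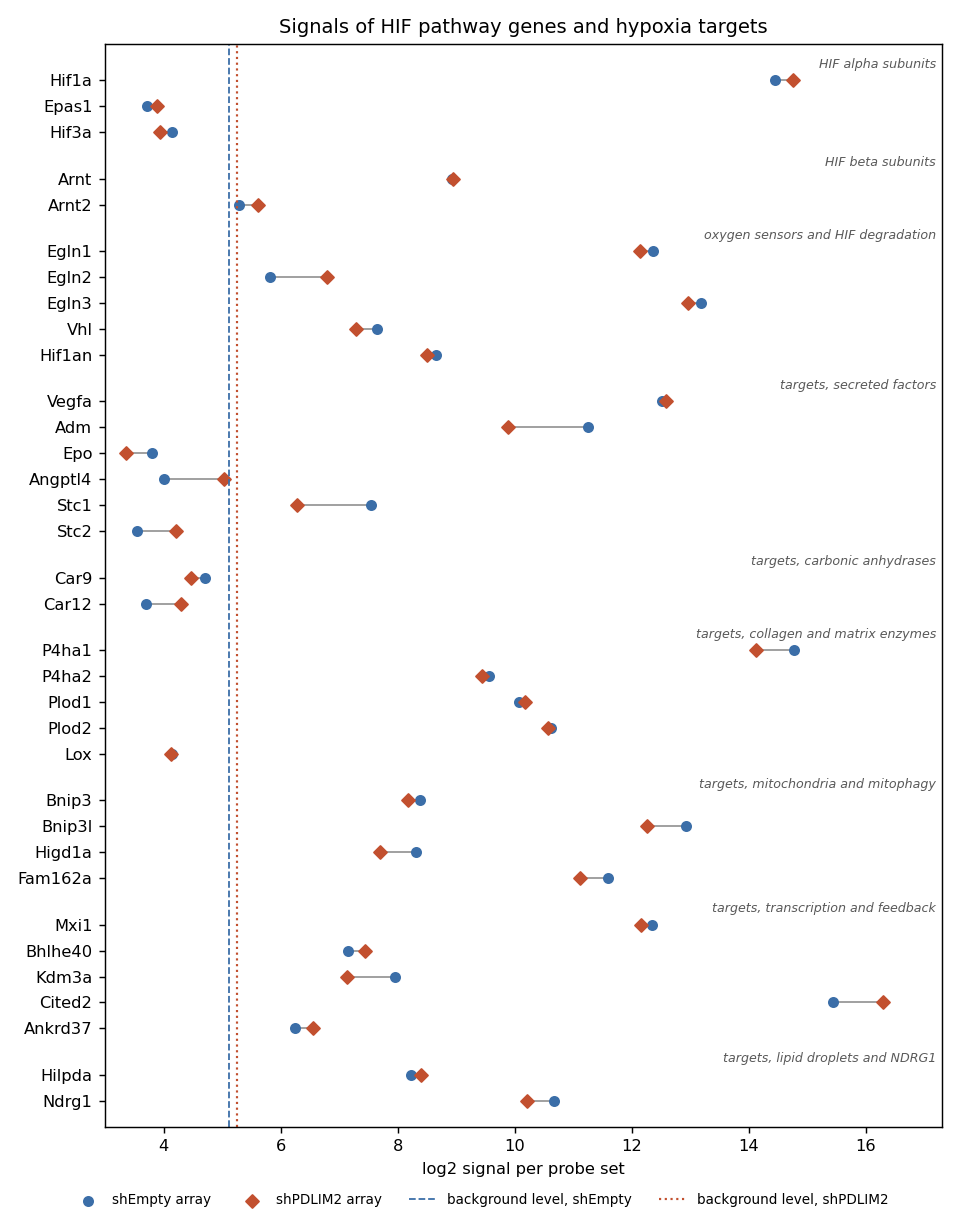
Log2 signals of the 34 measured genes, by role, in shEmpty (circles) and shPDLIM2 (diamonds) LLC cells; the vertical lines are the background levels of 5.12 and 5.26, and levels may be compared within a row only. The 8 genes to the left of both lines had no signal above background, and the longest bars among the others are those of Adm, Stc1 and Egln2.

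Among the HIF subunits, Hif1a had a higher signal in shPDLIM2 cells. Hif1a, which encodes HIF-1α, measured 14.45 on the shEmpty array and 14.75 on the shPDLIM2 array (log2), a difference of 0.30 (1.23-fold), less than the spread of 1 probe set (0.35) on the deposited scale and 0.40 after quantile normalization. Of all genes above background on both arrays, 21.5% were at least as much higher. Epas1, which encodes HIF-2α, had signals of 3.71 and 3.88, and Hif3a, whose product includes inhibitory forms, had 4.14 and 3.93. Both lay below background on both arrays, so that Hif1a was the alpha subunit gene with a measured signal. Arnt, which encodes HIF-1β, the partner of every alpha subunit, had signals of 8.93 and 8.94, a difference of 0.01 that became 0 after centring. Arnt2, a paralog of Arnt best known from neurons, had 5.29 and 5.61, both near the background level. The 3 subunit genes above background were thus higher by between 0.01 and 0.32.

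The oxygen sensors did not go one way, and a single one stood out. Egln1 encodes PHD2, the main prolyl hydroxylase of HIF-1α, and measured 12.37 on the shEmpty array and 12.14 on the shPDLIM2 array (log2), a difference of -0.23. Egln3, which encodes PHD3 and is itself a HIF target, had 13.19 and 12.96, again -0.23. Both differences were within the spread of 1 probe set. In contrast, Egln2, which encodes PHD1, had signals of 5.82 and 6.80, a difference of 0.98 or 1.97-fold higher. Of all genes above background on both arrays, 1.30% were at least as much higher. The shEmpty signal of Egln2 lay only a little above background, and the difference stayed inside the central 95% of the receptor genes. It passed 2-fold after quantile normalization (1.05), as did 2.38% of genes above background, and when a lowess trend on signal was removed (1.03), as did 2.24%. Vhl, the substrate receptor of the ubiquitin ligase, had 7.65 and 7.28, a difference of -0.37. Hif1an had 8.65 and 8.50, a difference of -0.15. In all, 4 of the 5 genes of oxygen sensing and HIF degradation were lower and Egln2 was higher, beside 54.9% lower among all genes above background.

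To place the members' promoters beside their signals, windows from 250 bases before to 50 bases after the most upstream start of each gene were taken from RefSeq (GRCm38.p6) and searched for the core of the hypoxia response element, ACGTG or GCGTG, on both strands. Overlapping matches counted as 1, so that CACGTG, which reads as ACGTG on both strands and is also the E-box of other factors, is a single core. Windows were matched for 26 of the 35 genes, and 20 of them (76.9%) held at least 1 core. The share was 43.8% of 27025 genes in the table and 49.2% of 17491 protein-coding genes. The median GC content was 64.3% in the members' windows and 56.3% in those of protein-coding genes, and the part of base composition in these shares was not tested. By role, 14 of 17 targets and 6 of 9 subunit and sensor genes held a core. The genes Epas1, Angptl4, Stc1, Plod2, Lox, Loxl2, Bnip3l, Bhlhe40 and Ndrg1 were not matched. A core is a match of letters and not a site of binding.

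The upstream 250 bases are shown for the 3 matched targets with the largest differences among those with a core, and, chosen after their values were seen, for Egln2, the sensor that was higher, and Fam162a, the member with the most cores. Capitals mark the cores, and the last base precedes the start site. The windows lie at chr7:110627407-110627656 on the + strand (Adm), chr10:17722978-17723227 on the + strand (Cited2), chr6:71632918-71633167 on the - strand (Kdm3a), chr7:27166803-27167052 on the - strand (Egln2) and chr16:36071562-36071811 on the - strand (Fam162a), in GRCm38.p6.
Adm: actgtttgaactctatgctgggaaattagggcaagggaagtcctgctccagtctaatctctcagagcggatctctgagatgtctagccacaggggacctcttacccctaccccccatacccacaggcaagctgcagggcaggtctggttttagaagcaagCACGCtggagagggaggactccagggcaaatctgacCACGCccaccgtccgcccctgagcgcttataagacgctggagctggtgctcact
Cited2: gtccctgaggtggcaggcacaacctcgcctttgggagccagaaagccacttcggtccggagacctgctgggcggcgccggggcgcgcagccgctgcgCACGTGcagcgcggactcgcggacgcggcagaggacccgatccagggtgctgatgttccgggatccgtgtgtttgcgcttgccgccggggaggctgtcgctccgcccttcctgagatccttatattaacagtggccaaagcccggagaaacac
Kdm3a: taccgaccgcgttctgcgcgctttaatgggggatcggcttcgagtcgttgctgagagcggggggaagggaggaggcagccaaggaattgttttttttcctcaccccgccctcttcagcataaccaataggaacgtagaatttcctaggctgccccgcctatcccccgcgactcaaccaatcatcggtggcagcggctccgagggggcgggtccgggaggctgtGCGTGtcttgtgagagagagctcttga
Egln2: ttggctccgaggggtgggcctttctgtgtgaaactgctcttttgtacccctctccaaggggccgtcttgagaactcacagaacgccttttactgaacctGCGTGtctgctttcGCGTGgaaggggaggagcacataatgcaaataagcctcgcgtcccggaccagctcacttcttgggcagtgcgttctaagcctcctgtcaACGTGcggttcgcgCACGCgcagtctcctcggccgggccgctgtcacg
Fam162a: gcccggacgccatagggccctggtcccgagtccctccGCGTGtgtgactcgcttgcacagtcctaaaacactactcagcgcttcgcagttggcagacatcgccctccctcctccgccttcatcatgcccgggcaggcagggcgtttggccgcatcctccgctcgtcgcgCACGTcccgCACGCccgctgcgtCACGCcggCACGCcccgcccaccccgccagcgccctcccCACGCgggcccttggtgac
Adm held 2 cores upstream, both on the reverse strand, and Cited2 a single palindromic one. Kdm3a also held 1, close to its start, whereas Egln2 held 4 upstream and Fam162a 6. Genes with and without a core both went either way. Of the members above background on both arrays, 9 of 16 with a core were lower and 7 higher, with a median difference of -0.16. Of the 5 without a core, 3 were lower and 2 higher (median -0.15). With 3 or more cores 4 were lower and 2 higher, and with 1 or 2 cores 5 were lower and 5 higher. The unmatched Stc1, Bnip3l, Ndrg1 and Plod2, lower on the deposited scale, and Bhlhe40, higher, are not in these counts.

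**Figure D2:**
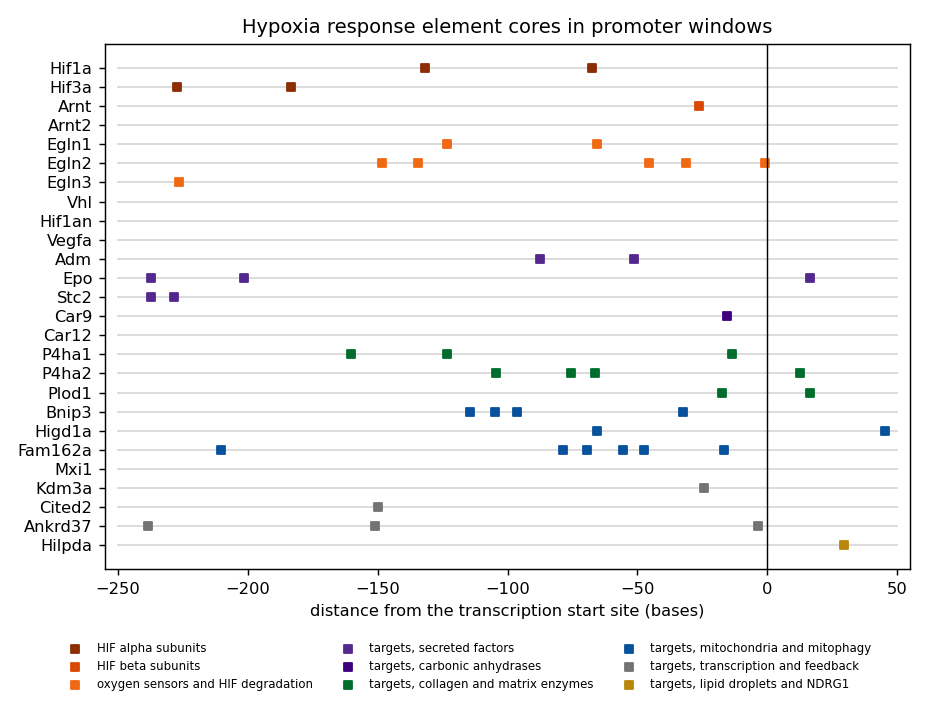
Positions of hypoxia response element cores (squares, coloured by role) in the windows of the 26 matched genes, as the distance in bases from the most upstream start site, marked by the vertical line. Fam162a has 6 cores and Egln2 has 5 in the whole window, while 6 genes, among them Vegfa and Vhl, have none.

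Of the secreted factors, both that stood apart were lower in shPDLIM2 LLC cells. Adm encodes adrenomedullin, a peptide that widens vessels and acts on endothelium, and it measured 11.25 on the shEmpty array and 9.89 on the shPDLIM2 array (log2). The difference of -1.36 (2.57-fold lower) was the largest of all members, and 0.589% of the genes above background on both arrays were at least as low. Stc1, which encodes the glycoprotein hormone stanniocalcin, had signals of 7.55 and 6.28, a difference of -1.27 or 2.41-fold lower. Here 0.904% of the genes were at least as low. By contrast Vegfa, the main vessel growth factor under HIF control, had signals of 12.52 and 12.58, a difference of 0.06. The well-known secreted targets thus included 2 that were lower by more than 2-fold and 1 that was nearly level.

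The other secreted targets had no signal above background on either array. Stc2, the paralog of Stc1, had log2 signals of 3.54 and 4.22, and Epo, the kidney hormone that drives red cell formation, had 3.81 and 3.35. Angptl4, an inhibitor of lipoprotein lipase, had 4.0 in shEmpty and 5.04 in shPDLIM2 cells. Its difference of 1.04 was outside the central 95% of the receptor genes, but both signals lay below the background level, so that no fold is given. The carbonic anhydrase genes were likewise not above background, with 4.70 and 4.47 for Car9 and 3.70 and 4.29 for Car12. Car9 is among the most widely used markers of hypoxia in tumors, and neither array showed it.

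Genes of collagen and matrix modification were close to level, apart from P4ha1. P4ha1, a catalytic subunit of the prolyl hydroxylase of collagen, measured 14.77 on the shEmpty array and 14.12 on the shPDLIM2 array (log2), a difference of -0.65 (1.57-fold lower). Its paralog P4ha2 had 9.56 and 9.44, a difference of -0.12. The 2 P4ha genes therefore had unequal differences of the same sign. The lysyl hydroxylase genes were near 0, Plod1 with 10.08 and 10.17 (0.09) and Plod2 with 10.62 and 10.57 (-0.05, but 0.02 after removal of the lowess trend). Lox, the lysyl oxidase that crosslinks collagen, had 4.15 and 4.13, below background on both arrays.

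All 4 genes that act at mitochondria were lower in shPDLIM2 cells, with a median log2 difference of -0.56. Bnip3l, a receptor that brings mitochondria to autophagosomes, measured 12.93 on the shEmpty array and 12.26 on the shPDLIM2 array (log2), a difference of -0.67 (1.59-fold lower). Bnip3, its paralog with the same role, had 8.38 and 8.18, a difference of -0.20 that was within the spread of 1 probe set. Higd1a, a small inner membrane protein that binds respiratory complexes, had 8.32 and 7.70, a difference of -0.62 or 1.54-fold lower. Fam162a, a mitochondrial protein linked to cell death in hypoxia, had 11.60 and 11.11, a difference of -0.49. The 4 genes remained lower under centring, quantile normalization and removal of the lowess trend, with medians of -0.47 and -0.48 under the latter pair. A difference below 0 was also the more common direction among all genes above background (54.9%).

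**Figure D3:**
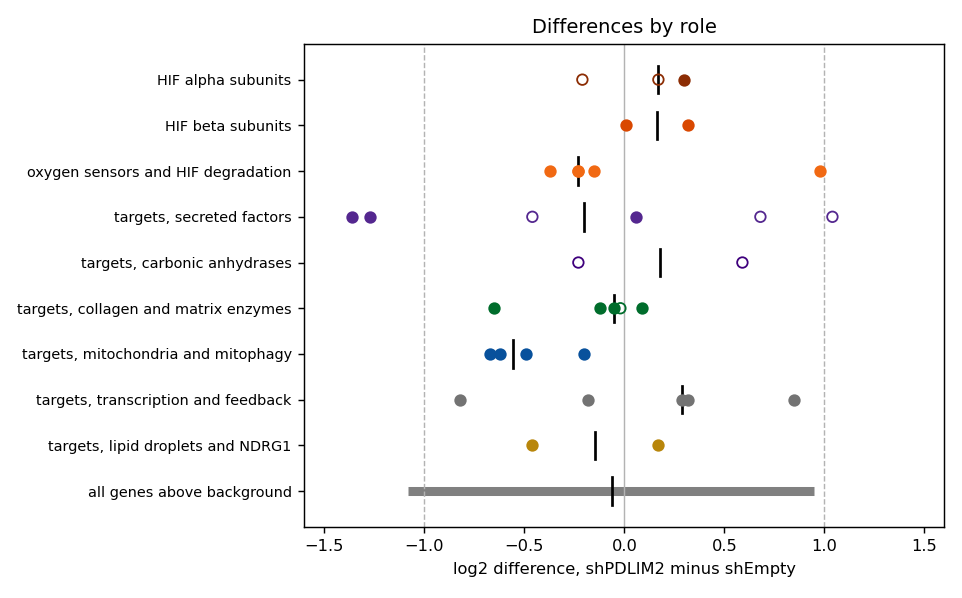
Log2 differences (shPDLIM2 minus shEmpty) of the members by role; filled points were above background on both arrays and open points on neither, black bars are medians over all points of a row, dashed lines mark 2-fold, and the grey bar is the central 95% of all genes above background (-1.08 to 0.95). Adm and Stc1 lie beyond the left dashed line, and the mitochondrial genes lie below 0.

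Regulators of transcription held both a lower and a higher gene past 1.5-fold, and none past 2-fold. Kdm3a, a demethylase of histone H3 lysine residues, measured 7.95 on the shEmpty array and 7.13 on the shPDLIM2 array (log2), a difference of -0.82 (1.77-fold lower). With Adm and Stc1 it was the third member above background whose difference lay outside the central 95% of the receptor genes. Cited2, a feedback inhibitor that competes with HIF-1α for the coactivators CBP and p300, had 15.44 and 16.29, a difference of 0.85 or 1.80-fold higher. Of the genes above background on both arrays, 2.47% were at least as much higher and 5.92% were at least as low as Kdm3a. The central 95% of these genes ran from -1.02 to 0.84. Kdm3a lay inside that range, and Cited2 lay outside it, as did Adm, Stc1 and Egln2 (0.98). Smaller differences were those of Ankrd37, an ankyrin repeat protein, with 6.24 and 6.56 (0.32), Bhlhe40, a repressor that also acts on clock genes, with 7.16 and 7.45 (0.29), and Mxi1, an antagonist of MYC, with 12.34 and 12.16 (-0.18). These 3 were within the spread of 1 probe set on the deposited scale. Ankrd37 and Bhlhe40 exceeded it after quantile normalization (0.395 and 0.385) and with the lowess trend removed (0.376 for each).

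The last 2 targets went opposite ways. Ndrg1, a stress-responsive protein studied in metastasis, measured 10.67 on the shEmpty array and 10.21 on the shPDLIM2 array (log2), a difference of -0.46 (1.38-fold lower). Hilpda, which inhibits lipolysis at lipid droplets, had 8.23 and 8.40, a difference of 0.17. In sum over the 26 members above background, 11 differences exceeded the spread of 1 probe set on the deposited scale, 9 lower and 2 higher. Of all genes above background on both arrays, 45.3% exceeded it in either direction. Their split by direction was not counted, so that the split of the members has no share beside it. The members' split also depended on the scaling. After quantile normalization Vhl (-0.27) fell within the spread, and Hif1a (0.395), Bhlhe40 (0.385) and Ankrd37 (0.395) exceeded it on the higher side. Removal of the lowess trend gave the same changes, with -0.282 for Vhl, 0.388 for Hif1a and 0.376 for Bhlhe40 and for Ankrd37.

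HIF subunits and oxygen sensors were then compared with the non-glycolytic targets. The 10 subunit and sensor genes had a median log2 difference of -0.07, with 5 lower and 5 higher. The 24 measured targets had a median of -0.15, with 15 lower and 9 higher. Of the genes above background, the differences of the 8 subunit and sensor genes spread from -0.37 to 0.98 and those of the 18 targets from -1.36 to 0.85, so that they overlapped widely. Genes are not replicates, and the difference between the groups was not tested. After quantile normalization and removal of the lowess trend, the median of subunits and sensors was 0.016 and 0.014, on the other side of 0, while that of the targets stayed below 0 at -0.09 and -0.10. Over genes above background alone, the deposited medians were -0.07 for subunits and sensors and -0.19 for targets. With the background at the 99th percentile they were -0.15 and -0.19, so that the groups lay closer.

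**Figure D4:**
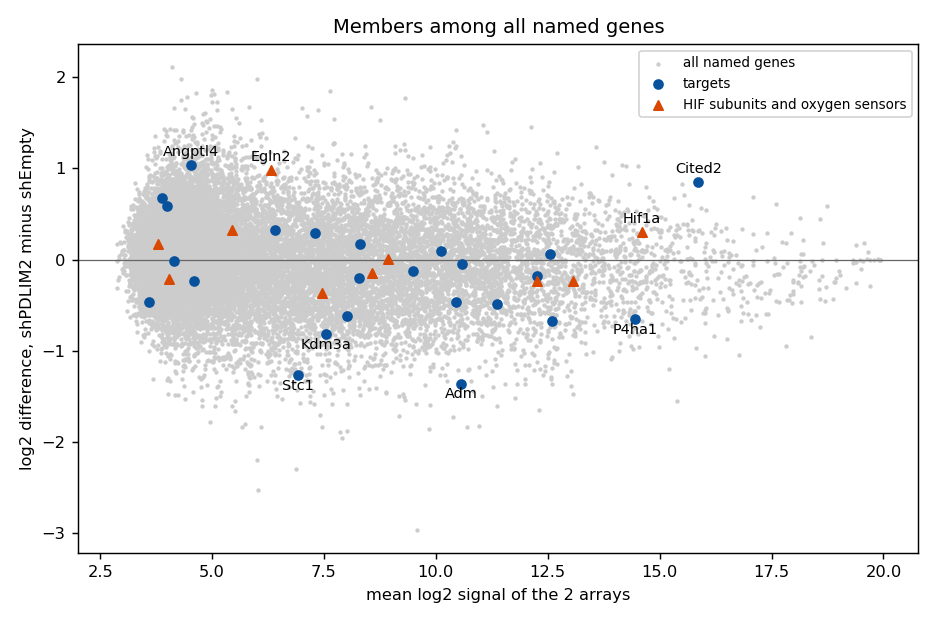
Log2 difference (shPDLIM2 minus shEmpty) against the mean log2 signal of the 2 arrays, for all 19505 named genes (grey), the targets (blue circles) and the HIF subunits and oxygen sensors (orange triangles). Adm at -1.36 and Stc1 at -1.27 lie near the lower edge of the cloud, Cited2 at 0.85 and Egln2 at 0.98 near the upper edge, and Hif1a at 0.30 within it.

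A property shared across roles is the enzyme class. The prolyl, lysyl and asparaginyl hydroxylases and the histone demethylase are oxygen-dependent dioxygenases that use 2-oxoglutarate and can be inhibited by succinate. Of these 9 members (Egln1, Egln2, Egln3, Hif1an, P4ha1, P4ha2, Plod1, Plod2 and Kdm3a), all above background on both arrays, 7 were lower and 2 higher (median -0.15), beside 54.9% lower among all genes above background. After removal of the lowess trend 6 were lower. Enzymes of the same class among the other pathway genes went both ways, with log2 differences of 1.03 for P4htm, 0.43 for Jmjd6, 0.12 for Kdm6b, -0.25 for Kdm4c and -0.43 for Kdm4b. This grouping was chosen after the values were seen.

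Further genes of the pathway showed no common direction. Of 46 listed, 43 were measured and 37 were above background on at least 1 array, among which 18 were lower and 19 higher. The median log2 difference over the 43 was 0.12, beside 0.01 over all named genes. At 2-fold, 2 were lower and 2 higher, beside 3.27% and 2.1% of all genes above background. At 1.5-fold, 7 were lower and 2 higher, beside 14.5% and 9.8%. Among the partners and ubiquitin ligase subunits of HIF, 4 of 12 were lower and 8 were higher, beside 54.9% and 44.3% of all genes above background, with P4htm, a transmembrane prolyl hydroxylase, at 4.83 in shEmpty and 5.86 in shPDLIM2 cells. P4htm was above background in shPDLIM2 cells alone, at least 1.67-fold higher against the background level.

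The 31 further hypoxia targets that were measured split into 15 lower and 16 higher genes, with a median log2 difference of 0.10. Of the 25 above background, 14 were lower and 11 higher, near the 54.9% lower among all such genes. Their median was -0.20, on the other side of 0 from that over all 31. The named ones are those with the largest differences. Narf, a nuclear prelamin A binding protein, measured 8.89 on the shEmpty array and 7.65 on the shPDLIM2 array (log2) (2.36-fold lower), and Met, the receptor of hepatocyte growth factor, had 11.99 and 10.94 (2.07-fold lower). Ak4, a mitochondrial adenylate kinase, had 8.23 and 7.36 (1.83-fold lower), and Ero1a, an oxidase of protein folding in the endoplasmic reticulum, had 16.63 and 15.79 (1.79-fold lower). Edn1, which encodes the vessel-constricting peptide endothelin, went the other way, with 4.54 and 5.60, at least 1.40-fold higher as only shPDLIM2 cells were above background. Of the glycolysis and lactate export genes, also HIF targets, 13 of 15 measured were lower, beside 49.0% of all named genes, with a median of -0.56. Of the 14 above background, 12 were lower, beside 54.9% of all such genes. With quantile normalization 13 of the 15 were lower and the median was -0.36. With the lowess trend removed 12 of the 15 were lower and the median was -0.48. Against the median of -0.15 of the non-glycolytic targets this difference was not tested.

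The scaling of the arrays moved single members little. Over the 34 genes, 2 had a sign that depended on it, Arnt and Plod2, both within 0.1 of 0 under each scaling. Every member that passed 1.5-fold on the deposited scale kept its sign under centring, quantile normalization and removal of the lowess trend. P4ha1 (-0.55), Bnip3l (-0.57) and Higd1a (-0.52) were no longer 1.5-fold lower after quantile normalization, nor were P4ha1 (-0.56) and Higd1a (-0.53) once the lowess trend was removed. Adm ranged from -1.29 to -1.37, Stc1 from -1.19 to -1.28, Cited2 from 0.84 to 0.95 and Hif1a from 0.29 to 0.40.

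**Figure D5:**
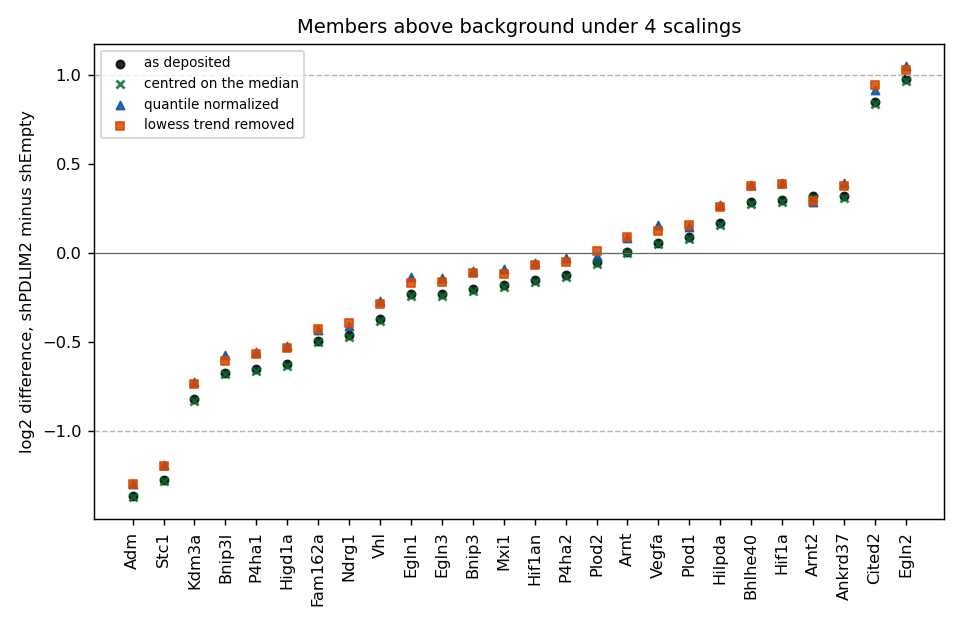
Log2 differences (shPDLIM2 minus shEmpty) of the 26 members above background, ordered by the deposited values, under 4 scalings of the arrays; dashed lines mark 2-fold. Adm and Stc1 lie beyond 2-fold under each scaling, and Egln2 crosses it after quantile normalization (1.05) and removal of the lowess trend (1.03).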

How the data were processed

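RNA of shEmpty and shPDLIM2 LLC cells was profiled on Clariom S mouse arrays, one for each line. The authors deposited log2 signals per probe set; the submitters' processing notes list the Transcriptome Analysis Console and RMA. Not given in the sources used here were versions, the genome build and any normalization of one array to the other beyond RMA. RMA can pull low signals together, but whether differences of dim genes were understated here was not tested. The central range of differences given above was -0.79 to 1.01 for the receptor genes. For genes above background on both arrays it was -1.02 to 0.84, so that the dim genes did not have a clearly narrower range. Of 22206 probe sets, 19572 had 1 symbol, 2634 had none and 0 had several; probe sets of 1 gene were averaged.

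The members and lists were chosen with earlier results of these data known. Every member was named, with up to 6 other pathway genes by absolute difference among those above background, and up to 3 promoters by the same measure. Where 1 array alone was above background, the fold is a bound, taken from the bright signal and the dim array's background or, if larger, its measured signal. Shares of all genes above background past each fold stand in place of tests. Alternatives were centring, quantile normalization, removal of a lowess trend (fraction 0.3), the 99th percentile of the receptor genes as background, no filter, and only genes above background. The scaling steps were tested on simulated data. Computation used pandas 2.3.3 and numpy 2.4.6 under Python 3.11.15, with statsmodels 0.14.6 for the lowess trend, and matplotlib 3.10.9 for figures. Protein sequences were not used here.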

Additional observations from a re-analysis of the deposited data

How the results depend on the processing

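With 1 array per line, no replicate could be left out, and no paired analysis was possible because each group has 1 sample and no test was made. Pdlim2 ranged from -1.63 to -1.72 over the scalings, and under each scaling no single member moved by more than the spread of 1 probe set. At 2-fold, 0 members were higher on the deposited scale and 1 under quantile normalization or lowess trend removal (Egln2), as well as without the filter on background (Angptl4). At 1.5-fold, 6 members were lower, 3 after quantile normalization, and 2 were higher, 5 without the filter. Of the other pathway genes, 2 were at least 2-fold lower and 1 on the quantile or lowess scale; 2 were at least 2-fold higher, 0 after removal of the trend and 1 with the background at the 99th percentile. At least 1.5-fold higher were 2, against 5 after quantile normalization, 4 after removal of the trend, 1 with the stricter background and 4 without the filter. The median of subunits and sensors, -0.07, became 0.016 with quantile normalization and 0.014 with the trend removed. It was -0.15 over genes above the 99th percentile background. All genes above background had a median difference of -0.06 as deposited, 0 on the quantile scale and -0.01 on the lowess scale. The cause of these changes was not tested. With the background at the 99th percentile, 25 members stayed above it on both arrays. No member has more than 1 probe set, so that the comparison of probe sets within a member gave no value. Signals near background limit what can be said of 8 members, of Arnt2 and of Egln2, whose shEmpty signal was 5.82.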
